A study of Mus musculus with 24 samples.

Results

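Hmgcs1, Sqle, Lss, Fdps, Idi1, Cyp51 and Srebf2 are 7 genes of cholesterol supply, 6 enzymes of the synthesis pathway and the transcription factor that drives it. They were taken by symbol as a pathway group, with earlier results of these data known, and all 7 were found among the 55469 genes of the brain table and of the liver table and passed the filter on low values in both tissues. No uptake receptor is among the 7, so they describe synthesis and its regulation, and uptake and transport genes are given only as a separate list.

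Total RNA of brain or liver was sequenced in male mice on a C57BL/6N background that were fed normal chow. The 4 genotypes were wild type (WT) and lines homozygous for 1 deletion each. These lines are tRNA-Phe-GAA-1-1-/- (tRNA-Phe-1-1-/- or 1-1-/- from here on), tRNA-Phe-GAA-2-1-/- (2-1-/-) and, last, tRNA-Phe-GAA-3-1-/- (3-1-/-). Each deleted gene encodes a transfer RNA that carries phenylalanine and reads its codons through the GAA anticodon, and the lines differ in which gene was lost. The deleted genes represent different isodecoders, which share the anticodon but differ in sequence elsewhere. There were 3 replicates of each genotype in each tissue, 24 samples in all. The methods describe WT and mutant mice matched for age and litter, but also the use of different litters. The labels of these samples give no litter. The deletions were made by CRISPR editing of embryos and bred as germline lines, so every cell of a mutant mouse carries the deletion and the controls carry none. An age is stated for the mice of the study in general but not for these samples, the hour of tissue collection is not given in the sources used here, and the deleted tRNA genes have no row in the tables, so the loss itself was not analysed here.

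Cholesterol is built from acetyl-CoA by way of mevalonate, isoprenoids, squalene and lanosterol. When membranes of the endoplasmic reticulum are low in sterol, the protein made from Srebf2 (SREBP2) is escorted to the Golgi by Scap, cut, and sent to the nucleus, where it raises transcription of nearly every enzyme of the pathway. Insig proteins hold it back when sterol is plentiful. The liver makes cholesterol for export as lipoprotein and for bile acids, whereas the brain, behind its barrier, makes its own, much of it for myelin.

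The promoters are shown because SREBP2 and its partner NF-Y act through short sequences close to the start site of these genes. RefSeq windows for GRCm38.p6, from 250 bases before to 50 bases after the start site, were matched for 5 of the 7 members (all but Sqle and Fdps) and are printed in the direction of transcription. Capitals mark a sterol regulatory element of the form TCACNCCAC or an NF-Y box (CCAAT), each on either strand.
Hmgcs1, chr13:119690101-119690400, + strand: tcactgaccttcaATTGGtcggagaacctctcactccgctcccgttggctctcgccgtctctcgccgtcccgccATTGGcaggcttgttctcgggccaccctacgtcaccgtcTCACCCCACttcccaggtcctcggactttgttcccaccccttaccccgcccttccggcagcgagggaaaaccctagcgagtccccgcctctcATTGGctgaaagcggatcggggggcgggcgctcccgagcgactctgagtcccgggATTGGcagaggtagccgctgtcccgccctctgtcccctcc
Idi1, chr13:8885356-8885655, + strand: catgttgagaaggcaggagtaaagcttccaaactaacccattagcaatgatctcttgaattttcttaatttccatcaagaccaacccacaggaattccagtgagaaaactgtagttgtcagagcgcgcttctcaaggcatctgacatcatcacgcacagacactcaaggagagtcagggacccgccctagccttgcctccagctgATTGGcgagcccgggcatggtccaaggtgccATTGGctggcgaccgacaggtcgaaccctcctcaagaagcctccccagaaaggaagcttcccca
Lss, chr10:76531355-76531654, + strand: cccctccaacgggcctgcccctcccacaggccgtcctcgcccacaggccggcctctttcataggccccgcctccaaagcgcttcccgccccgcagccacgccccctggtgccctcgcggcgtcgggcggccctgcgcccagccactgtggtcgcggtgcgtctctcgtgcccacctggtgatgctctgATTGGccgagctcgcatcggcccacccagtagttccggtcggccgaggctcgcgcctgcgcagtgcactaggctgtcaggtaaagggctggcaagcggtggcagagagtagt
Cyp51, chr5:4104648-4104947, - strand: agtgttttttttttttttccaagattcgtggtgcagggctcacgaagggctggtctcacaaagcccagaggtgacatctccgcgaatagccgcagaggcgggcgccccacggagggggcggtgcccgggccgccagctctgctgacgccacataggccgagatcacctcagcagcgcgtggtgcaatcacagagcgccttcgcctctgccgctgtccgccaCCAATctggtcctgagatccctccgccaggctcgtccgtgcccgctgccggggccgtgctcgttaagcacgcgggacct
Srebf2, chr15:82147019-82147318, + strand: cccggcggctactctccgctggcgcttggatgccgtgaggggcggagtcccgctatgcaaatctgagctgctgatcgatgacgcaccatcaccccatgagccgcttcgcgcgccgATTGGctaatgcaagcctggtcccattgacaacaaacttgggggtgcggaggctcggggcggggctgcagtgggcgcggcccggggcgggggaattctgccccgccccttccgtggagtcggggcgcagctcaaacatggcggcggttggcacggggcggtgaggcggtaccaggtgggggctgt
The Hmgcs1 window held 1 sterol element, TCACCCCAC, beginning 137 bases before the start site, and 4 NF-Y boxes. Idi1 held 2 NF-Y boxes, and Lss, Cyp51 and Srebf2 held 1 each, with no match to the sterol form in these windows. Of the 27025 promoters of the same length, 1.22% held the sterol form, 37.9% an NF-Y box and 0.433% both, and the motifs do not overlap each other in the printed windows. A match is a run of letters and not evidence that a factor is bound.

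In GRCm38.p6, Srebf2 (ENSMUSG00000022463.8) at chr15:82147269-82205379 and Sqle (ENSMUSG00000022351.14) at chr15:59315092-59331193 lie on one chromosome, as do Hmgcs1 (ENSMUSG00000093930.2) at chr13:119690351-119708260 and Idi1 (ENSMUSG00000058258.14) at chr13:8885606-8892396. The others are Fdps (ENSMUSG00000059743.12) at chr3:89093588-89101967, Cyp51 (ENSMUSG00000001467.5) at chr5:4080674-4104697 and Lss (ENSMUSG00000033105.12) at chr10:76531565-76557139. Each value below counts reads over all transcripts of the gene.

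Because the deleted genes serve phenylalanine codons, the share of TTT and TTC codons was counted in the coding sequence of each member. The median over 21450 mouse coding sequences was 3.74%, with quartiles of 2.73% and 5.06%. Sqle was the only member above the upper quartile, with 33 phenylalanine codons of 572 (5.77%). Cyp51 had 4.97%, Idi1 4.41%, Fdps 4.25%, Hmgcs1 3.85%, Lss 3.82% and Srebf2 3.10%.

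Values are the deposited normalised read counts, and a difference was called when its adjusted p (limma, Benjamini-Hochberg over all genes tested) was under 0.05. Depth was 30365760 to 46225360 reads per brain sample and 32276896 to 51584522 per liver sample. Every member had 1132 or more normalised counts in every sample, and counting error was not set against the spread between mice. The leading markers were those of the labelled tissue: the 6 hepatocyte markers summed to 59632 to 92260 RPM (reads scaled to a common library total) in the livers, where the 6 neuronal markers reached at most 10.2, and the neuronal markers summed to 2687 to 4165 in the brains. Hepatocyte markers also gave reads in the brains, unevenly within every genotype (23.4 to 349 RPM in WT, 1.07 to 46.0 in 1-1-/-, 16.4 to 1486 in 2-1-/- and 2.73 to 740 in 3-1-/-). Ttr, which the choroid plexus also makes, had the highest mean of them in WT brains (6185 normalised counts, against 331 for Alb), and the part of these reads in the brain values was not tested. In bulk tissue, fewer cells of a type and less RNA per cell cannot be told apart.

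The levels of the members differed widely in WT mice. Levels are given in RPKM, which is RPM divided by the length of the canonical transcript in kilobases, so their order depends on that length. Without this division Hmgcs1 led in the WT liver, at 498 RPM against 337 for Fdps. In RPKM, Fdps, which builds farnesyl pyrophosphate, stood highest in the WT liver at 258 ± 63.8 (SD, n = 3). It was followed by Hmgcs1 at 122 ± 34.4, Idi1 at 69.4 ± 15.2, Cyp51 at 35.5 ± 5.20, Sqle at 27.1 ± 5.88, Lss at 23.6 ± 7.18 and Srebf2 at 8.21 ± 1.20. The range of Sqle overlapped those of Cyp51 and Lss, its neighbours in this order, and no other neighbours overlapped. In the WT brain the order was Hmgcs1 at 54.8 ± 5.54, Fdps at 32.9 ± 1.30, Srebf2 at 19.9 ± 2.91, Sqle at 15.9 ± 1.01, Idi1 at 15.2 ± 0.749, Cyp51 at 13.3 ± 0.982 and Lss at 6.23 ± 0.375. There the ranges of Srebf2 and Sqle overlapped, as did those of Sqle and Idi1. The tissues were normalised separately, so levels are set side by side and not tested: the 6 enzymes stood higher in the liver and the regulator Srebf2 in the brain.

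In the liver, 2 enzymes were lower in tRNA-Phe-1-1-/- mice than in WT. Hmgcs1 was at 41.6% and Lss at 50.9% of the WT mean. Sqle, one of the enzymes between them in the pathway, stood at 145% in the same livers without passing the test. In tRNA-Phe-3-1-/- livers Lss alone was called, at 47.8% of WT, and in tRNA-Phe-2-1-/- livers no member was, although Lss had its lowest mean there, 42.6% of WT. At an unadjusted p under 0.05 there were 2 members in 2-1-/- livers (Lss and Fdps), where 14.9% of all genes were, and 4 in 3-1-/- livers (Lss, Sqle, Fdps and Srebf2), where 16.1% were. In 2-1-/- livers edgeR called 0 members and DESeq2 1 (Lss), where DESeq2 called 3.12% of all genes. Fdps, Idi1, Cyp51 and Srebf2 were called in no comparison. Of all genes tested in the liver, 17.3% were called between tRNA-Phe-1-1-/- and WT and 9.08% were called lower, so 2 of 7 members is not far from the background of that comparison. The background was 0.883% (0.694% lower) for tRNA-Phe-3-1-/-, where 1 of 7 members was called, and 0.132% for tRNA-Phe-2-1-/-. By the F-test for any difference among the 4 genotypes, 3 members were called (Lss, adjusted p = 0.00741; Hmgcs1, 0.0164; Sqle, 0.0263) where 17.0% of all genes were.

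**Figure D1:**
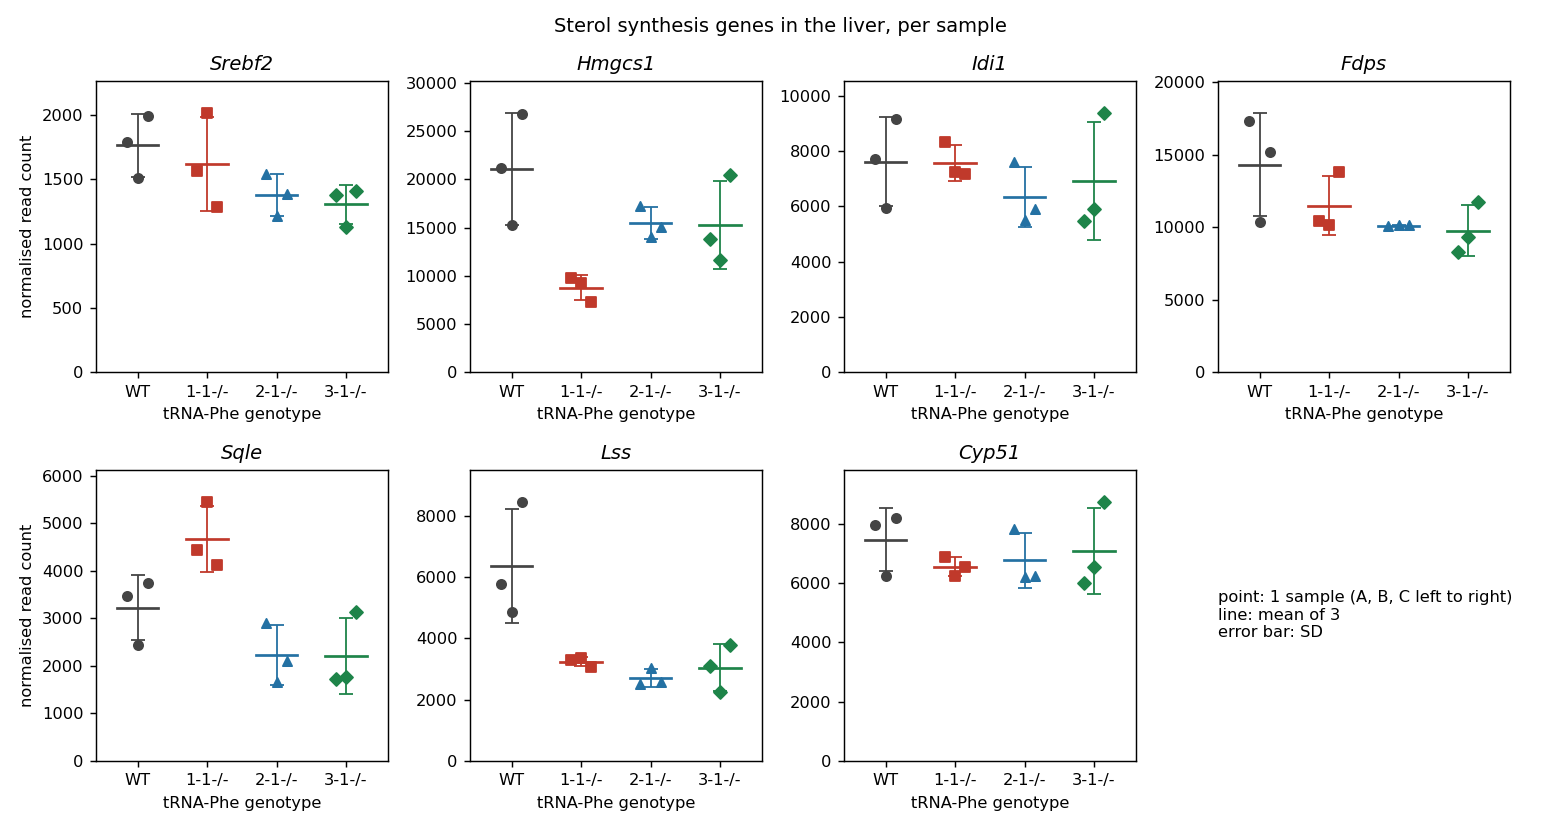
Normalised read counts of the 7 members in each liver sample by genotype; points are samples (3 per genotype), lines are means and error bars are SD, with each axis starting at 0. All Hmgcs1 points of tRNA-Phe-1-1-/- livers (7294 to 9816) lie below every other genotype, all Sqle points of that line (4119 to 5447) lie above, and the Lss points of the 3 mutant lines (2263 to 3785) lie below those of WT (4854 to 8460.1).

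Srebf2 encodes the regulator itself. Its normalised counts in WT livers were 1791, 1510.2 and 1996 in replicates A, B and C. They were 1565, 2014 and 1285 in tRNA-Phe-1-1-/-, 1538, 1216 and 1384 in 2-1-/-, and 1379, 1132 and 1411 in 3-1-/- livers. The 3-1-/- livers all lay below WT, and differed by -0.43 ± 0.17 on the log2 scale (SE of the limma fit, adjusted p = 0.229), and the other lines overlapped WT. Srebf2 transcript thus differed from WT in no line past the threshold (-0.14 ± 0.17, adjusted p = 0.613, in 1-1-/- and -0.35 ± 0.17, adjusted p = 0.345, in 2-1-/- livers).

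Hmgcs1 makes HMG-CoA, the precursor of mevalonate, in the cytosol. WT livers had 21146, 15261 and 26833 normalised counts. The tRNA-Phe-1-1-/- livers had 9816, 9209 and 7294, the 2-1-/- livers 17285, 14028 and 15022, and the 3-1-/- livers 13860.0, 11592 and 20442. Only the 1-1-/- group was separate from WT. Its log2 fold change was -1.24 ± 0.23 (95% interval -1.74 to -0.74, adjusted p = 0.00410). In 2-1-/- and 3-1-/- livers the differences were -0.42 ± 0.23 (adjusted p = 0.414) and -0.47 ± 0.23 (adjusted p = 0.346). The fall in 1-1-/- livers also separated that line from the other lines, with differences of -0.82 ± 0.23 against 2-1-/- (adjusted p = 0.0316) and -0.77 ± 0.23 against 3-1-/- (adjusted p = 0.0398). These calls depended on single livers: the first was lost without any 1 of the 1-1-/- or 2-1-/- livers, and the second without WT replicate A, any 1-1-/- or 2-1-/- liver, or 3-1-/- replicate A or C (adjusted p up to 0.0945 and 0.131).

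Idi1 and Fdps act in turn on the isoprenoid units that follow mevalonate. Idi1, the isomerase, had 7711, 5953 and 9167 counts in WT, 8324, 7233 and 7183 in 1-1-/-, 7591, 5513 and 5917 in 2-1-/-, and 5488, 5907 and 9368 in 3-1-/- livers. All 4 genotypes overlapped, and the interval of the 1-1-/- difference ran from -0.44 to 0.47 on the log2 scale. Processed copies of Idi1 in the annotation could take part of its reads. Fdps had 17294, 10383 and 15205 counts in WT, 10404, 10167 and 13804 in 1-1-/-, 10042, 10127 and 10121 in 2-1-/-, and 8269.9, 9303 and 11704 in 3-1-/- livers. The 2-1-/- values lay close together (SD 47.3) and just under the lowest WT liver, and the differences from WT were -0.30, -0.47 and -0.53, each ± 0.19, with adjusted p of 0.298, 0.283 and 0.189.

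Sqle oxidises squalene and is known as a control point of the later pathway. Its counts were 3475, 2447 and 3738 in WT and 4441, 5447 and 4119 in tRNA-Phe-1-1-/- livers, which lay above every WT liver. They were 2901, 1651 and 2109 in 2-1-/- and 1723, 1769.9 and 3131 in 3-1-/- livers, overlapping the low end of WT. Against WT no line passed the test (0.55 ± 0.26, adjusted p = 0.171; -0.55 ± 0.26, adjusted p = 0.346; -0.58 ± 0.26, adjusted p = 0.302). Between lines it did, since Sqle was higher in 1-1-/- than in 2-1-/- livers by 1.10 ± 0.26 (95% interval 0.53 to 1.67, adjusted p = 0.0157) and than in 3-1-/- livers by 1.13 ± 0.26 (0.56 to 1.69, adjusted p = 0.0141). The first of these calls was lost without 1-1-/- replicate B, 2-1-/- replicate B or 2-1-/- replicate C (adjusted p up to 0.0731), and the second was kept without any 1 liver.

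Lss folds the squalene epoxide into lanosterol, the first sterol ring system. WT livers had 5789.9, 4854 and 8460.1 counts. The 1-1-/- livers had 3284, 3359 and 3080.1, the 2-1-/- livers 2518, 3046 and 2567, and the 3-1-/- livers 3084, 2263 and 3785. Every mutant liver, 9 of 9, thus lay below every WT liver, the one member for which this held. The log2 fold changes were -0.94 ± 0.20 (adjusted p = 0.00986) in 1-1-/-, -1.20 ± 0.20 (adjusted p = 0.0572) in 2-1-/- and -1.06 ± 0.20 (adjusted p = 0.0392) in 3-1-/-, and the 3 comparisons share the WT livers. Groups without overlap were found for 34.8%, 25.4% and 19.9% of all genes in these comparisons, against 3, 2 and 2 of 7 members. Those shares cover single lines and either direction. How many of all genes had all 9 mutant livers on one side of WT was not computed. Relative to Idi1 within each sample, a ratio chosen after the values had been seen, Lss reads were 0.751 to 0.923 per Idi1 read in WT and 0.332 to 0.562 in the mutant livers (exact two-sided permutation p = 0.1 for each line, the smallest possible with 3 against 3). The call in 3-1-/- livers was lost when any 1 liver but 1-1-/- replicate B was left out (adjusted p of 0.0505 to 0.148). That in 2-1-/- livers was gained without 3-1-/- replicate B (adjusted p = 0.0350).

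Cyp51 removes a methyl group from lanosterol. Its counts were 7976, 6248 and 8185 in WT, 6890.2, 6241 and 6548 in 1-1-/-, 7821, 6216 and 6253 in 2-1-/-, and 6002, 6529 and 8736 in 3-1-/- livers. The genotypes overlapped throughout, and the intervals of the 3 differences from WT lay between -0.51 and 0.24, so a change of the size seen for Lss lies outside them.

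As a group, all 7 members were lower in 2-1-/- and in 3-1-/- livers than in WT on the log2 scale, with medians of -0.42 and -0.47 where the medians over all genes were 0.00 and 0.01. About as many genes lay below WT as above it in these comparisons (49.8% and 48.7% below). The medians stayed below 0 with any 1 liver left out, from -0.63 to -0.26 and from -0.68 to -0.33, and all 7 members stayed lower except Cyp51 in 3-1-/- livers (0.03 without 3-1-/- replicate A). In 1-1-/- livers the median was -0.18 with 5 members lower and 2 higher. Within some genotypes the members ranked the mice alike: WT replicate B was the lowest WT liver for all 7, and 3-1-/- replicate C the highest of its group for all 7. In 1-1-/- and in 2-1-/- livers the highest replicate differed between members. The share of all genes with such agreement was not computed.

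The opposite positions of Sqle and Hmgcs1 in tRNA-Phe-1-1-/- livers can be read within each sample, where the size factor cancels. This ratio was chosen after the values had been seen. Sqle reads per Hmgcs1 read were 0.164, 0.160 and 0.139 in WT livers and 0.452, 0.591 and 0.565 in 1-1-/- livers. They were 0.168, 0.118 and 0.140 in 2-1-/- and 0.124, 0.153 and 0.153 in 3-1-/- livers, so the 1-1-/- livers stood apart and the other groups overlapped. The ratio of geometric means was 3.45-fold. The exact two-sided permutation test gave p = 0.1, the smallest that 3 against 3 samples can give. That outcome was fixed beforehand, because every 1-1-/- liver already lay above WT for Sqle and below it for Hmgcs1. The p thus adds nothing to the member values. In the brain the ratio was 0.179 to 0.211 in WT and 0.183 to 0.223 in 1-1-/- mice.

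**Figure D2:**
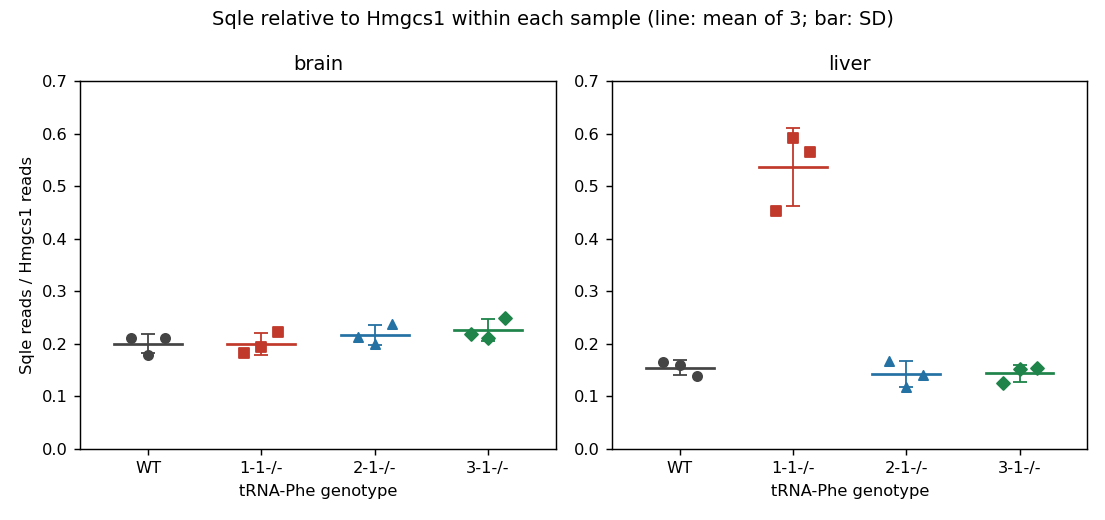
Reads of Sqle divided by reads of Hmgcs1 in each sample (y axis, no unit) by genotype, in the brain and the liver; points are samples, lines are means and bars are SD. The 3 tRNA-Phe-1-1-/- livers lie at 0.452 to 0.591 and every other sample of either tissue lies at 0.118 to 0.250.

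Between mutant lines, 2 members (Hmgcs1 and Sqle, values above) were called in the liver for 1-1-/- against 2-1-/-, where 15.9% of all genes were called, and the same 2 for 1-1-/- against 3-1-/-, where 16.1% were. No member was called between 2-1-/- and 3-1-/- livers by limma, edgeR or DESeq2 or at an unadjusted p under 0.05, and 0% of all genes were called by limma. The member differences between those lines were -0.14 to 0.08, and the widest interval, that of Sqle, ran from -0.54 to 0.59.

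The other steps of the pathway were followed with a list of 13 further synthesis enzymes. In tRNA-Phe-1-1-/- livers 5 of 13 were called lower and none higher, with a median log2 fold change of -0.49 where the median of all genes was -0.01. Of all genes, 9.08% were called lower in this comparison. Pmvk, the second kinase of mevalonate, fell by 1.67 ± 0.15 (adjusted p = 9.33e-05), from 2892 to 3239 counts in WT to 814 to 1094. Sc5d, a late desaturase, fell by 1.31 ± 0.11 (adjusted p = 5.87e-05), and Acat2, which supplies acetoacetyl-CoA to Hmgcs1, fell by 0.88 ± 0.11 (adjusted p = 0.000573). Dhcr7, a reductase of the last steps, fell by 0.77 ± 0.21 (adjusted p = 0.0289) and Nsdhl, a sterol dehydrogenase, fell by 0.60 ± 0.19 (adjusted p = 0.0477). In all, 11 of 13 lay below WT, and 8 of 13 had an unadjusted p under 0.05 where 31.8% of all genes did.

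**Figure D3:**
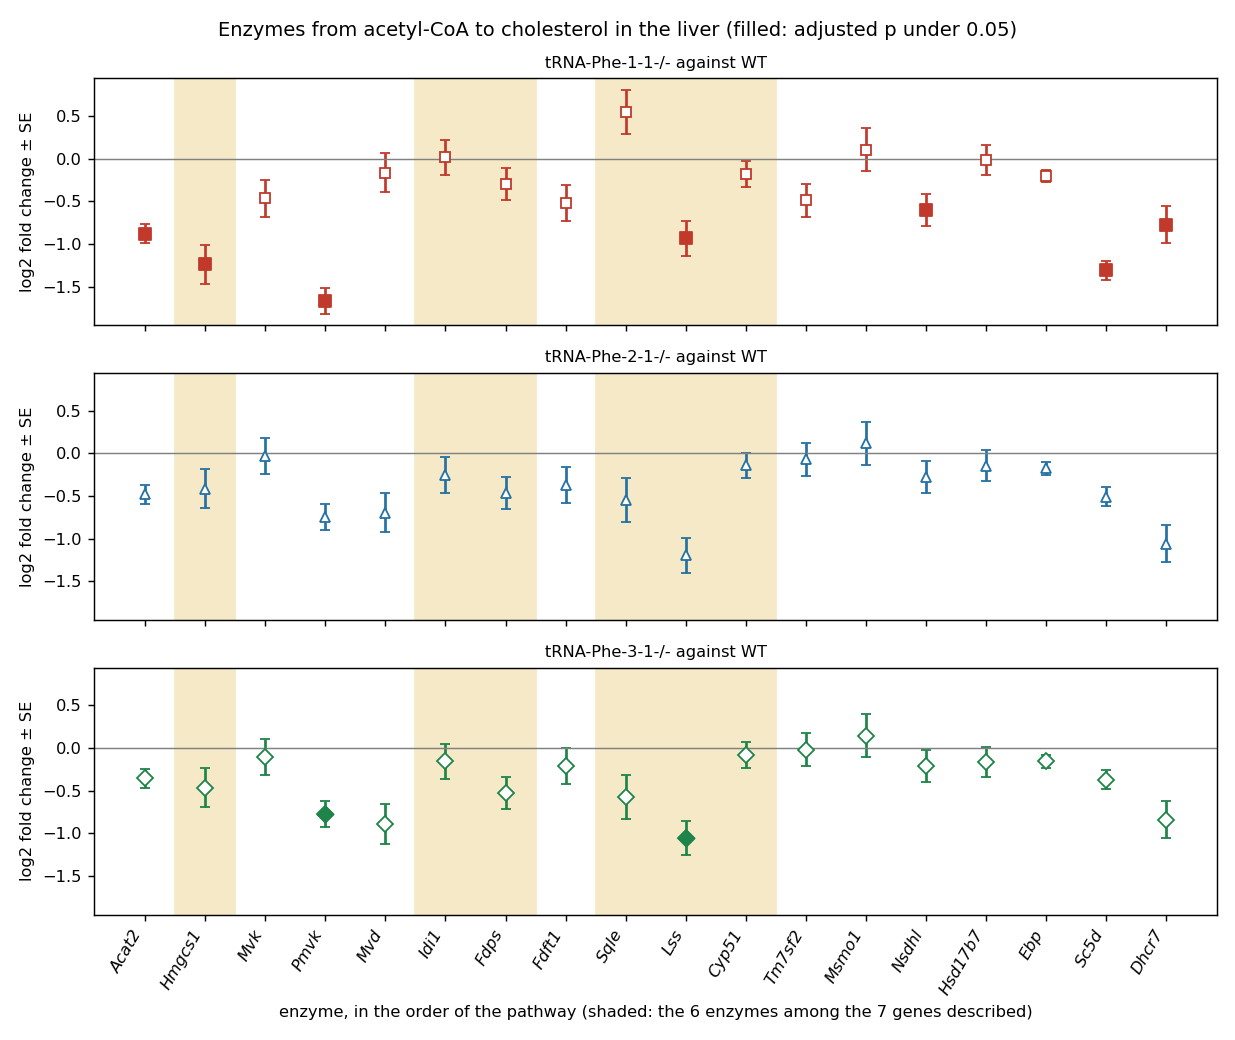
Log2 fold change against WT (y axis, error bars are SE) of synthesis enzymes in the liver, in pathway order from acetyl-CoA, for each mutant line; filled symbols have an adjusted p under 0.05 and shading marks the members. Pmvk, Sc5d and Hmgcs1 lie lowest in tRNA-Phe-1-1-/- livers (-1.67, -1.31 and -1.24) beside Sqle at 0.55, and Lss lies at -0.94 to -1.20 in all 3 lines.

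In the other lines fewer enzymes of the list were called. In 3-1-/- livers it was Pmvk alone (-0.77 ± 0.15, adjusted p = 0.0402; list median -0.21). In 2-1-/- livers none was called by limma (list median -0.33), with 7 of 13 at an unadjusted p under 0.05 (14.9% of all genes), among them Dhcr7 (-1.06 ± 0.21, adjusted p = 0.0742) and Pmvk (-0.74 ± 0.15, adjusted p = 0.0742).

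Genes that sense sterols and process SREBP were a list of 9, of which 4 were called lower and 1 higher in 1-1-/- livers (list median -0.07). Of all genes, 17.3% were called there and 9.08% were called lower. Insig2 fell by 1.29 ± 0.12 (adjusted p = 0.000115) and Insig1, a target of SREBP that retains it, fell by 1.12 ± 0.17 (adjusted p = 0.00134). Srebf1, the lipogenic sister of Srebf2, fell by 0.96 ± 0.14 (adjusted p = 0.000977) and Scap, the escort, fell by 0.95 ± 0.14 (adjusted p = 0.00142). Nr1h3, an oxysterol receptor, rose by 0.23 ± 0.07 (adjusted p = 0.0470). Srebf1 was the only one of the 9 called in 3-1-/- livers (-0.78 ± 0.14, adjusted p = 0.0328). None of the 9 was called by limma in 2-1-/- livers, with 5 at an unadjusted p under 0.05 against the same 14.9% of all genes, among them Srebf1 (-0.65 ± 0.14, adjusted p = 0.0785).

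Of 12 genes tested for uptake and transport inside cells, 1 was called in 1-1-/- livers: Lipa, the lysosomal lipase that frees cholesterol from lipoprotein esters, which fell by 1.02 ± 0.10 (adjusted p = 0.000153). Of 9 genes for efflux, esterification and removal, Soat2, the esterifying enzyme of hepatocytes, fell by 1.30 ± 0.15 (adjusted p = 0.000317) and its relative Soat1 rose by 0.77 ± 0.22 (adjusted p = 0.0305). Of 10 genes of the isoprenoid side branches, Nus1, a subunit of the dolichol-forming enzyme, rose by 0.44 ± 0.09 (adjusted p = 0.00706). The medians of these 3 lists in 1-1-/- livers were -0.04, -0.08 and -0.03, and 17.3% of all genes were called there. No gene of these lists was called by limma in 2-1-/- or 3-1-/- livers. At an unadjusted p under 0.05 there were 1 and 2 uptake genes, 0 and 0 efflux genes and 0 and 1 side branch genes. The shares of all genes at that threshold were 14.9% and 16.1%.

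Clock genes, which rise and fall over the day, moved with the same comparison. In 1-1-/- livers 7 of 10 genes that peak with Dbp were called higher (median 2.21) and 5 of 6 genes that peak with Bmal1 lower (median -1.04). Of all genes, 17.3% were called in this comparison and 31.8% had an unadjusted p under 0.05. Summed, the list with Dbp ran at 82.7 to 131 RPM in WT and 258 to 556 in 1-1-/- livers, and the list with Bmal1 at 241 to 254 and 125 to 145. In 3-1-/- livers the lists ran at 148 to 368 and 147 to 196, with 0 genes called by limma and 6 and 4 at an unadjusted p under 0.05. In 2-1-/- livers they ran at 91.1 to 198 and 185 to 250, with 0 called and 1 and 1 at an unadjusted p under 0.05. Of all genes, 16.1% passed that unadjusted threshold in 3-1-/- livers and 14.9% in 2-1-/- livers. The part of the clock genes in the member differences was not tested. Among markers of other cells, 2 of 3 erythroid genes were called lower in 1-1-/- livers (221 to 258 RPM summed, against 357 to 455 in WT), and 0 of 6 hepatocyte, 0 of 7 macrophage and 0 of 3 cholangiocyte markers were called by limma, with 1, 1 and 0 at an unadjusted p under 0.05. In the same livers 1 of 3 stellate markers was higher, and of 3 endothelial markers 1 was higher and 1 lower. The part of these cell types in the member differences was not tested.

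In the brain no member was called in any comparison by limma. The background there was low, with 1.05% of all genes called for 1-1-/- against WT, 0% for 2-1-/- and 3-1-/- against WT, 0.530% for 1-1-/- against 2-1-/-, 2.11% for 1-1-/- against 3-1-/-, 0% for 2-1-/- against 3-1-/- and 0.634% by the F-test. In tRNA-Phe-1-1-/- brains the members lay at -0.12 to 0.06 on the log2 scale and their intervals between -0.41 and 0.39. At an unadjusted p under 0.05 there were 0 members for 1-1-/- and 2-1-/- against WT and for 1-1-/- against 2-1-/-, and 2 (Lss and Sqle) for each comparison with 3-1-/-. Of all genes, 12.3%, 19.5% and 9.93% passed that unadjusted threshold for 3-1-/- against WT, 1-1-/- and 2-1-/-. The shares were 15.9% for 1-1-/- against WT, 5.57% for 2-1-/- against WT and 13.7% for 1-1-/- against 2-1-/-. By edgeR no member was called in the brain, and by DESeq2 Lss was called for 3-1-/- against WT and Lss and Sqle for 1-1-/- against 3-1-/-, and Lss in its test over the 4 genotypes. DESeq2 called 1.94%, 6.85% and 8.23% of all genes there. Without 2-1-/- replicate C limma called Lss, and without 3-1-/- replicate B it called Sqle, for 1-1-/- against 3-1-/-.

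**Figure D4:**
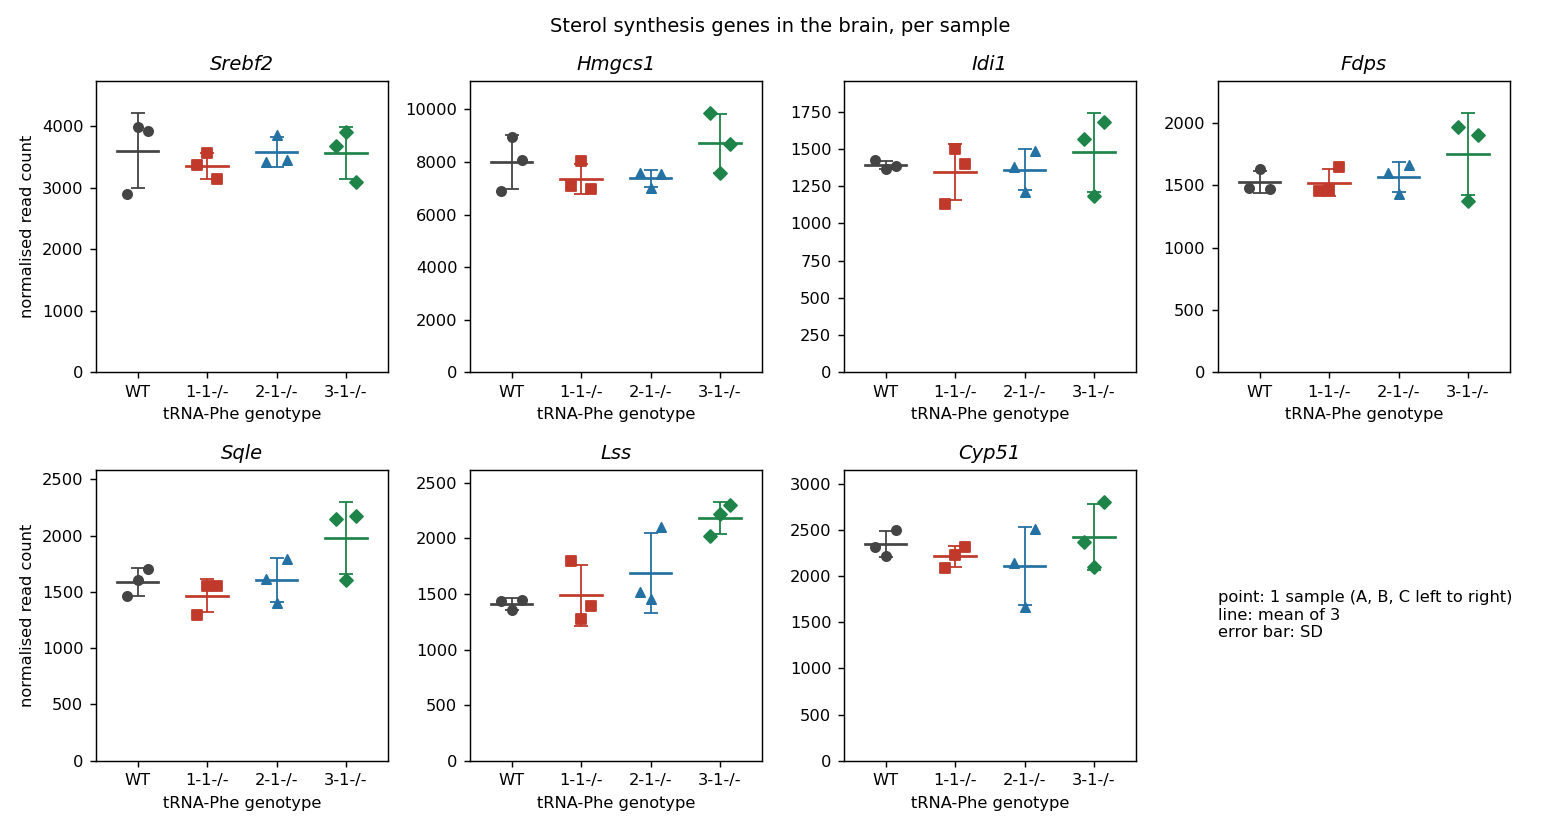
Normalised read counts of the 7 members in each brain sample by genotype, drawn as for the liver. Lss points of tRNA-Phe-3-1-/- brains (2025 to 2302) lie above those of WT (1352 to 1441), and the genotypes overlap for Srebf2, Idi1, Fdps and Cyp51.

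The widest brain difference was that of Lss. WT brains had 1435, 1352 and 1441 counts and tRNA-Phe-3-1-/- brains 2025, 2223 and 2302, while 1-1-/- brains had 1795, 1275 and 1389.9 and 2-1-/- brains 1516, 1452 and 2102. The 3-1-/- brains lay at 155% of WT without overlap, which 16.4% of all genes also showed in this comparison. The 2-1-/- brains also lay above every WT brain (0.24 ± 0.15 on the log2 scale, adjusted p = 0.921), where 11.4% of all genes did not overlap. In 3-1-/- brains the log2 fold change against WT was 0.63 ± 0.15 (95% interval 0.30 to 0.96, adjusted p = 0.176). Against 1-1-/- brains the difference was -0.57 ± 0.15 for 1-1-/- minus 3-1-/- (adjusted p = 0.0775).

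Sqle followed at 1460.2, 1602 and 1703 counts in WT, 1296, 1553 and 1549 in 1-1-/-, 1613, 1402 and 1794 in 2-1-/-, and 2149.7, 1605 and 2172 in 3-1-/- brains. Replicate B of 3-1-/- lay within the WT range and the other two above it (0.30 ± 0.13 against WT, adjusted p = 0.395). Hmgcs1 had 6914, 8965 and 8079 counts in WT, 7096, 8027 and 6961 in 1-1-/-, 7565, 7006 and 7547 in 2-1-/-, and 9852, 7586 and 8697 in 3-1-/- brains, with overlap between WT and each line. The same replicate B of 3-1-/- was the lowest of its group for Hmgcs1, Idi1, Fdps, Sqle and Cyp51 but not for Lss or Srebf2. The member median was 0.13 in 3-1-/- brains, with 6 of 7 above WT, and -0.08 in 1-1-/- brains, with 6 of 7 below (0.00 over all genes in both).

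The remaining members overlapped between all genotypes in the brain. The regulator Srebf2 had 2895, 3982 and 3914 counts in WT, 3369, 3558 and 3134 in 1-1-/-, 3422, 3862 and 3445 in 2-1-/-, and 3671, 3911 and 3095 in 3-1-/- brains. Idi1 had 1424, 1368 and 1387 in WT, 1133, 1499 and 1399 in 1-1-/-, 1379.7, 1213 and 1487 in 2-1-/-, and 1566, 1182 and 1685 in 3-1-/- brains. WT brains were close together for Idi1 and the 3-1-/- brains were spread on both sides of them. Fdps had 1482, 1629 and 1468 in WT, 1454, 1464 and 1645 in 1-1-/-, 1599, 1429.9 and 1664 in 2-1-/-, and 1971, 1375 and 1905 in 3-1-/- brains. Cyp51 had 2317, 2217 and 2503 in WT, 2091, 2228 and 2317 in 1-1-/-, 2138, 1669.9 and 2508 in 2-1-/-, and 2363, 2101 and 2800.3 in 3-1-/- brains. Against WT these 4 genes lay at -0.17 to 0.18 on the log2 scale in the 3 lines, and their adjusted p-values were 0.604 or above.

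None of the 13 further enzymes was called against WT in any brain comparison by limma, with 1, 1 and 2 of them at an unadjusted p under 0.05 in 1-1-/-, 2-1-/- and 3-1-/- brains. The shares of all genes at that threshold were 15.9%, 5.57% and 12.3%. Between 1-1-/- and 3-1-/- brains Mvk, the first mevalonate kinase, was lower in 1-1-/- (-0.48 ± 0.11, adjusted p = 0.0468). In the same comparison Ch25h, which makes an oxysterol from cholesterol, was higher in 1-1-/- (3.64 ± 0.68, adjusted p = 0.0254), from 0.873 to 84.8 normalised counts per brain. Oligodendrocytes, the cells that make myelin, varied between brains: their 8 markers summed to 3429 to 4221 RPM in WT, 1335 to 2547 in 1-1-/-, 1927 to 4718 in 2-1-/- and 2399 to 5376 in 3-1-/- brains, with no marker called against WT by limma. In 1-1-/- brains, however, all 8 had an unadjusted p under 0.05, where 15.9% of all genes did, with a median log2 fold change of -0.98. The 3 erythroid markers did so too in 1-1-/- brains (median -1.12), and 2 of 3 in 2-1-/- brains (median -0.79), with none called by limma. Of 5 hepatocyte markers tested in the brain, 1 each in 1-1-/- (Ttr, -7.39 ± 2.93, adjusted p = 0.244) and 3-1-/- brains (Alb, -4.52 ± 1.44, adjusted p = 0.254) passed the unadjusted threshold. Of 6 astrocyte, 6 neuronal and 5 microglia markers none was called against WT by limma, with 0, 0 and 1 at an unadjusted p under 0.05 in 1-1-/- brains and 3, 2 and 0 in 3-1-/- brains. Per2 (1.00 ± 0.16, adjusted p = 0.0202) and Per3 (0.44 ± 0.09, adjusted p = 0.0474) were called higher in 1-1-/- brains, and the part of these genes and cells in the member values was not tested.

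**Figure D5:**
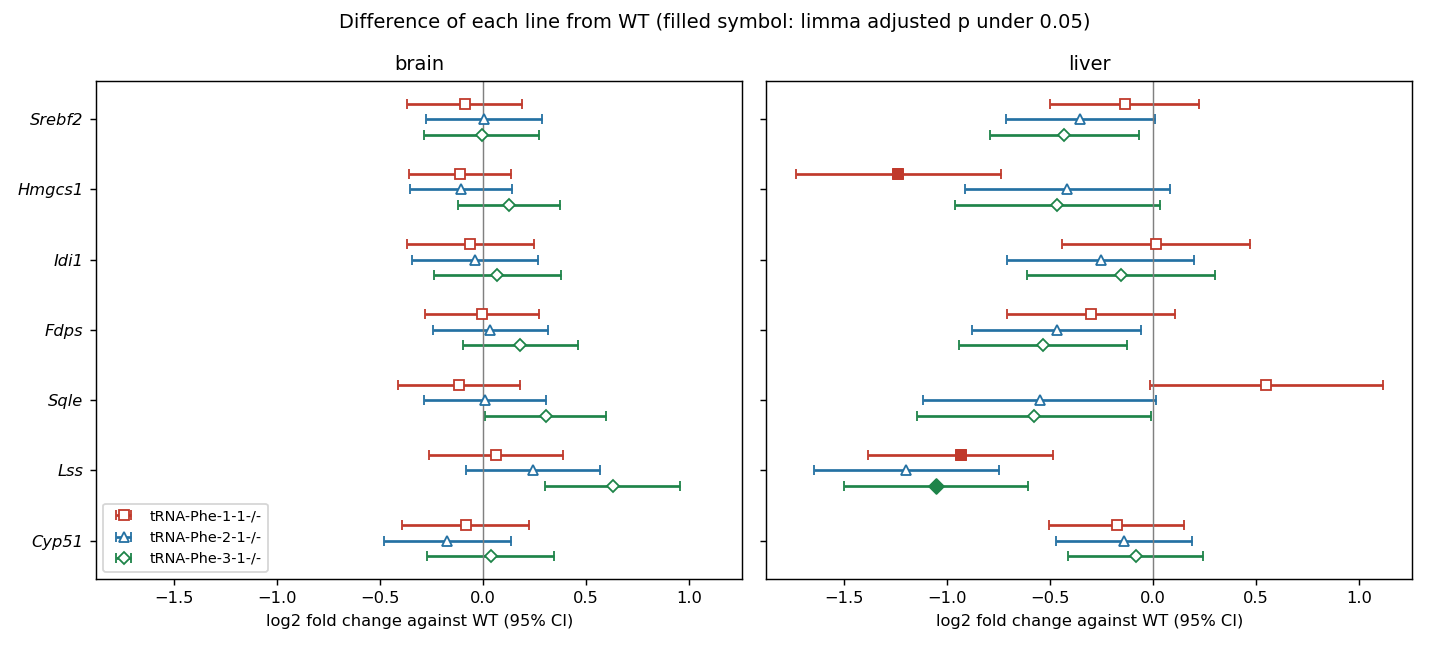
Log2 fold change against WT (x axis, bars are 95% intervals) of each member in the brain and the liver for the 3 mutant lines; filled symbols have an adjusted p under 0.05. Brain intervals cross 0 except those of Lss and Sqle in tRNA-Phe-3-1-/- mice, and in the liver the Lss intervals of the 3 lines end at -0.49, -0.75 and -0.61.

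How closely the members moved together differed between the tissues. Over the 12 livers, the correlation of each member with the mean log2 deviation of the other 6 was 0.73 to 0.78 for Lss, Fdps, Idi1, Cyp51 and Srebf2 but 0.43 for Sqle and 0.37 for Hmgcs1. Over the 12 brains it was 0.96 for Sqle, 0.77 for Fdps, 0.73 for Hmgcs1, 0.63 for Idi1, 0.61 for Cyp51, 0.41 for Lss and -0.15 for Srebf2. These are descriptions over 12 samples that share normalisation and genotype. Of the 13 further enzymes, Mvd (0.87), Dhcr7 (0.85) and Fdft1 (0.80) followed the mean of the members most closely in the liver, and Msmo1 (0.86), Nsdhl (0.82) and Sc5d (0.77) in the brain. The 13156 protein-coding genes compared in the brain and the 11347 in the liver left out the members but held genes of the lists. Outside the lists, the brain genes most like the members were Calcrl (0.94), Idh1 (0.92), B9d1 (0.90), F8 (0.89) and Txndc17 (0.89). The most unlike were Ackr2 (-0.90), Tnfrsf11b (-0.87), Zc3h18 (-0.85), Smc1a (-0.85) and Gid4 (-0.84). Outside the lists in the liver, Zfp157 (0.92), Mfsd13a (0.88), Ints10 (0.87) and Tmed10 (0.87) were among the 5 most alike. Btf3 (-0.94), Abt1 (-0.91), Prorsd1 (-0.89), Cop1 (-0.88) and Amn1 (-0.88) were the most unlike.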

How the data were processed

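Libraries were made from brain and liver RNA, 3 replicates per genotype and tissue. Per the methods, the authors used Trim Galore for trimming, STAR for alignment (GRCm38.p6) and Salmon to quantify transcripts and summed them to genes. The deposited values are a signal, DESeq2 counts per gene divided by size factors, normalised by the authors for each tissue separately. Columns of the authors' own comparisons (mean, log2 fold change, error, s-value) were not used. The reads behind each value were recovered as whole numbers (100% within 0.01).

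The 7 members and all lists were chosen with earlier results of these data known. limma (3.58.1, R 4.3.3) with a variance trend was fitted to log2(normalised count + 1) of the 12 samples of a tissue, for the 19228 brain and 15856 liver genes with a mean of at least 10. Fold changes are on this scale. P-values were adjusted within each comparison (Benjamini-Hochberg, 0.05), and an F-test covered the 4 genotypes. Alternatives were other pseudocounts (0.1, 5), filters, normalisations and designs, and, chosen after seeing the data, edgeR (4.0.16) and DESeq2 (1.42.0) on the recovered reads. The test was also run on simulated counts, with the same dispersion for every gene and changes only in 1-1-/- against WT. That run does not show how the test behaves with the spread of these samples. Genes named from the lists were those past the threshold, at most 5 per list and comparison by adjusted p, or at most 2 by unadjusted p where none passed. Genes most like the members were the 5 with the highest and the 5 with the lowest correlation with the members' mean deviation, among protein-coding genes with a mean of at least 50. Members were matched by Ensembl ID, and reads of Idi1 may be shared with its pseudogenes. Promoters came from RefSeq. Coding sequences and the transcript lengths behind RPKM came from a later GENCODE release than the one used by the authors. Some pathway genes are not reported here.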

Additional observations from a re-analysis of the deposited data

Results flagged for a closer look

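In the liver, Hmgcs1 and Sqle set tRNA-Phe-1-1-/- apart from both other lines in opposite directions, by the test of the difference between lines. The log2 difference of 1-1-/- against 2-1-/- was -0.82 for Hmgcs1 and 1.10 for Sqle. Against 3-1-/- it was -0.77 for Hmgcs1 and 1.13 for Sqle. Both Hmgcs1 calls, and the Sqle call against 2-1-/-, were lost when some single livers were left out. Both Hmgcs1 calls were also lost with quantile normalisation and without the variance trend. Of all genes, 15.9% and 16.1% were called in these comparisons.

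For 2 members, every brain of a line lay on one side of the WT mean and every liver on the other. These differences between tissues were not tested, since the tissues were normalised separately. Lss in 3-1-/- mice had log2 fold changes of 0.63 (brain) and -1.06 (liver), a difference of 1.69. Lss in 2-1-/- mice had 0.24 and -1.20, a difference of 1.44. Sqle in 3-1-/- mice had 0.30 and -0.58, a difference of 0.88, and in 1-1-/- mice it had -0.12 and 0.55, a difference of -0.67.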

How the results depend on the processing

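The calls of Hmgcs1 and Lss in tRNA-Phe-1-1-/- livers against WT were kept in every setting tried. Of 1932 recomputed gene values, 1886 stayed on the same side of the threshold, 38 lost and 8 gained a call, none changed sign while called, and 53 uncalled values changed sign. The main counts of members called were 0 for the brain comparisons and for 2-1-/- livers against WT, 1 for 3-1-/- livers against WT, and 2 for 1-1-/- livers against each other line. DESeq2 gave 1 for 3-1-/- against WT, 2 for 1-1-/- against 3-1-/- and 1 by the F-test in the brain, and 1 for 2-1-/- against WT in the liver, where fitting only the 2 groups also gave 1. For 3-1-/- livers against WT the count was 0 without the variance trend, with the replicate block and with only 2 groups. For 1-1-/- against 2-1-/- livers it was 1 with quantile normalisation and without the variance trend, and for 1-1-/- against 3-1-/- livers it was 1 in these settings, without a filter and with only 2 groups. With 1 sample left out the count ran from 0 to 1 for 1-1-/- against 3-1-/- brains and for 2-1-/- and 3-1-/- livers against WT, from 0 to 2 for 1-1-/- against 2-1-/- livers and from 1 to 2 for 1-1-/- against 3-1-/- livers. The cause of these changes was not tested. Same-letter correlations of the deviations ran from -0.164 to 0.492 (brain, median 0.0343) and from -0.294 to 0.236 (liver, median -0.0251). Those of unlike letters ran from -0.358 to 0.329 (brain, median -0.03495) and from -0.361 to 0.368 (liver, median -0.00385). These ranges cannot tell whether the letters pair the samples, and the main fit used no pairing. With the replicate block Lss in 3-1-/- livers had an adjusted p of 0.0669. Means in percent of WT, computed from shares of the recovered reads, lay within 1 SD of those reported for 41 of 42 values, and the largest difference was 5.34 percentage points. With 3 samples a group, no exact test of a single value could pass the threshold. The limma p-values set a difference between means against a spread pooled over the 12 samples of a tissue and moderated over all genes.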
